A study of Mus musculus with 4 samples.

Results

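The genes described here are the 5 NFAT transcription factors Nfatc1, Nfatc2, Nfatc3, Nfatc4 and Nfat5, the calcineurin regulators Rcan1 and Rcan2, and the calcineurin catalytic subunits Ppp3ca and Ppp3cb. They were picked by name, as the rows of the deposited tables whose gene name equals one of these 9 symbols, out of 51826 genes in all. The set was put together with results of these libraries known, so the values of its members are given as a description and no test was run on them. All 9 passed the filter on low counts, a mean of 10 or more raw counts over all 4 libraries, which left 16734 genes for comparison.

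RNA was sequenced from dermal papilla cells (DPCs), the mesenchymal cells at the base of the hair follicle, and from dermal sheath cells (DSCs), which form the connective tissue sheath around it. Per the study's methods, both were cultured from whisker follicles of young EGFP-transgenic mice on a C57BL/6J background, the DPCs by outgrowth from the bulb and the DSCs after digestion of the sheath, and kept in DMEM with fetal bovine serum. The labels give the genotype as WT in every group and name no treatment other than passage, so the groups are low-passage DPCs and DSCs (passage 3) and high-passage DPCs and DSCs (passage 9). Each group was 1 library from cultured cells that had left the follicle, so no difference below has a replicate check, and passage cannot be told apart from when a library was made.

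NFAT proteins wait in the cytoplasm in a phosphorylated form. When calcium enters the cell, calmodulin activates the phosphatase calcineurin, which strips the phosphates from NFATc1 to NFATc4 and lets them enter the nucleus, where kinases such as GSK3 and DYRK1A later send them out again. NFAT5 is the odd member, since it has no calcineurin docking region and responds to high salt and osmotic stress, while Rcan proteins bind calcineurin and restrain it. In hair follicles, NFATc1 is best known from the epithelial stem cells of the bulge, and cyclosporin, a calcineurin blocker, is known to increase hair growth. Messenger RNA levels do not show how much NFAT was in the nucleus.

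Rcan1 is itself a textbook NFAT target, through an internal start site that gives a shorter isoform. The 250 bases before each of its 2 RefSeq starts are shown here because they differ in the NFAT core letters GGAAA. The window before the first start of Slc6a12, the betaine transporter and a textbook target of NFAT5, is shown because that gene is described below. The windows are from RefSeq on build GRCm38.p6 and lie at chr16:92466170-92466419 (minus strand), chr16:92400079-92400328 (minus strand) and chr6:121342324-121342573 (plus strand). They are written 5′ to 3′ along the gene, and capitals mark GGAAA or, for the other strand, TTTCC.
Rcan1, upstream start: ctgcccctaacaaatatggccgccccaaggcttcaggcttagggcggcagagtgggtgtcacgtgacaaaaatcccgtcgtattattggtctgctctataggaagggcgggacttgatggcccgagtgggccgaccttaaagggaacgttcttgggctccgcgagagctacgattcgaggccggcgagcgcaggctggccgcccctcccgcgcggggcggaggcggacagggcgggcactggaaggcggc
Rcan1, internal start: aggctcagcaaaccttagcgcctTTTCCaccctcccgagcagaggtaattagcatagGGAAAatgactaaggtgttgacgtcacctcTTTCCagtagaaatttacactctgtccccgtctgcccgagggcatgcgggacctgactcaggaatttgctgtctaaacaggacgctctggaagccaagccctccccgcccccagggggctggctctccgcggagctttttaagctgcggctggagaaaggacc
Slc6a12, first start: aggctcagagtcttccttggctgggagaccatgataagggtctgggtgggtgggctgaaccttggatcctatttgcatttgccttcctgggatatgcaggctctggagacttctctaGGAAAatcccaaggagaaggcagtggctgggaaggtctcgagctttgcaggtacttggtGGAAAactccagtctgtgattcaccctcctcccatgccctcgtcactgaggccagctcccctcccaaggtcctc

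The window before the internal Rcan1 start held 3 GGAAA cores on either strand, whose first letters lay 227, 193 and 163 bases before the start, and 2 of them were part of TGGAAA. Of 32851 RefSeq windows of the same length, 55.6% held at least 1 GGAAA on either strand, 6.39% held 3 or more, and 2.28% held 2 or more TGGAAA. The window before the upstream Rcan1 start held 0 GGAAA. The Slc6a12 window held 2 GGAAA cores and 1 match to the TonE consensus, the longer element that NFAT5 binds, 75 bases before the start. A TonE match on either strand was present in 4.31% of windows, and the other 4 Slc6a12 windows held none. TGGAAA and the TonE match contain the GGAAA core, so these counts overlap. Such matches describe letters only and do not show that a factor bound there.

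The total count was between 34981284 and 47604059 per library. A count of 0 allows up to 3 counts, or between 0.0658 and 0.0836 CPM (counts scaled to a common library total with the TMM method). Intervals below are 95% exact Clopper-Pearson intervals of a library's share of 2 libraries' reads, which cover counting error only and compare libraries, not conditions. The labelled cell types were checked against their markers. Sox2, a dermal papilla gene, stood at 45.6 and 41.5 CPM in low- and high-passage DPCs against 7.09 and 3.91 CPM in DSCs and was higher in DPCs at each passage. Rspo3, with at most 196 counts, was also higher in DPCs at each passage, at 1.90 and 5.46 CPM against 1.58 and 2.17 CPM. Crabp1 was higher in DPCs at passage 3 only, at 609 CPM against 40.0 CPM. Other papilla markers did not follow Sox2. Ncam1 stood at 99.0 and 46.6 CPM in DPCs against 310 and 342 CPM in DSCs, and Fgf7 was also lower in DPCs at each passage. Lef1 had 508 and 2 counts in DPCs against 101 and 55 in DSCs, and Alpl had at most 23 counts in any library. The summed level of the 9 papilla markers was 1003 and 758 CPM in DPCs and 682 and 1217 CPM in DSCs. Crabp1 alone gave 609 and 406 CPM of these sums in DPCs and 40.0 and 448 CPM in DSCs. Acta2, the sheath marker smooth muscle actin, was abundant in all 4 libraries and stood at 7123 and 1871 CPM in DPCs against 5728 and 4330 CPM in DSCs, so it was lower in DPCs at passage 9 only. These markers therefore did not separate the labelled types cleanly. High-passage DPCs, the library with the highest Nfat5, Rcan1 and Akr1b3, also stood apart in marker sums. Summed sheath markers were at 3492 CPM against 6514 CPM or more, and summed fibroblast markers at 7373 CPM against 18571 CPM or more. Not every gene of these sums was lower there. The sheath gene Itga8 (967 CPM against 511 CPM or less) and the fibroblast gene Pdgfra (811 CPM against 304 CPM or less) were highest in that library. The part of these differences in the results below was not tested. Keratinocyte genes were near 0, with a summed level between 1.20 and 2.07 CPM over 7 genes and with Krt5, Krt14 and Cdh1 at 0 counts everywhere.

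**Figure D1:**
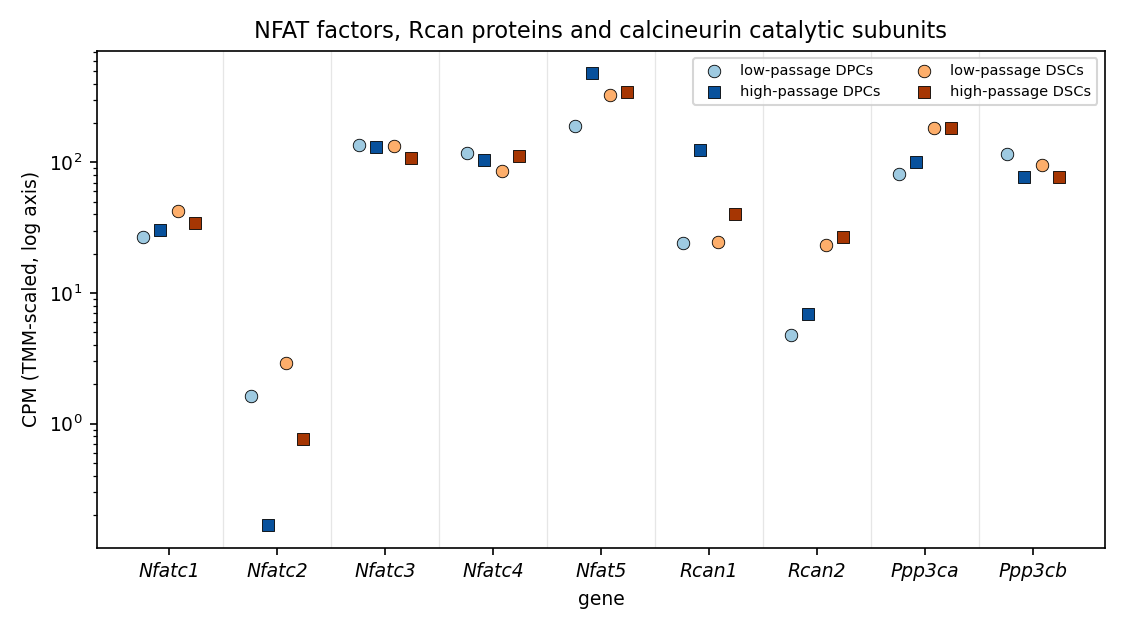
Level of each of the 9 genes in each library, as TMM-scaled CPM on a log axis, with circles for passage 3, squares for passage 9, blue for DPCs and orange for DSCs. Each symbol is 1 library and there is no error bar. Nfatc2 spans the widest range, from 0.167 to 2.90 CPM, Rcan1 stands apart at 125 CPM in high-passage DPCs, and Rcan2 is lower in both DPC libraries than in both DSC libraries.

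In DPCs, 2 of the 9 genes differed at least 4-fold between passage 9 and passage 3, where 9.94% of tested genes did so. Rcan1 was higher and Nfatc2 was lower at passage 9. With Nfat5 added, 3 of 9 differed at least 2-fold, against 31.1% of tested genes. In DSCs, 0 of 9 differed 4-fold (3.82% of tested genes) and only Nfatc2, 1 of 9, differed 2-fold (14.8%). Between DPCs and DSCs, 1 of 9, Rcan2, differed 4-fold at passage 3 (4.3% of tested genes, with 1.52% higher and 2.77% lower in DPCs), and 2 of 9, Rcan2 and Ppp3ca, differed 2-fold (13.3%). At passage 9, 0 of 9 differed 4-fold between the cell types (6.42%, with 2.5% higher and 3.91% lower in DPCs), while Rcan1, Rcan2 and Nfatc2, 3 of 9, differed 2-fold (20.1%). The comparisons share libraries and are not independent of each other. Because the genes were chosen with these results known, nothing is read from the counts against the background.

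Nfatc2 (ENSMUSG00000027544, chr2:168476410-168601657, minus strand, GRCm38) codes for the NFAT factor best known from T cells, where it drives cytokine genes. Its raw count was 60 and 6 in low- and high-passage DPCs and 110 and 35 in low- and high-passage DSCs. On the CPM scale these were 1.63, 0.167, 2.90 and 0.768. The DSC library was the higher one at each passage and the passage 9 library the lower one in each cell type, and high-passage DPCs were the lowest of all. The log2 fold change with passage was -2.94 in DPCs (95% interval -4.79 to -2.08), or 7.70-fold lower, and -1.85 in DSCs (-2.51 to -1.36), or 3.60-fold lower. A value at least as far in the same direction was seen for 1.74% of tested genes in DPCs and 1.42% in DSCs. The cell type difference was -0.81 at passage 3 and -1.91 at passage 9 for DPCs over DSCs.

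The low count sets the limit of these values. If both mates of each read pair were counted, the interval of the passage change widens to between -5.64 and -1.60 in DPCs and to between -2.84 and -1.15 in DSCs. On the deposited FPKM scale with a pseudocount of 0.1, the passage change was -1.46 in DPCs, no longer 4-fold, and -1.31 in DSCs, and the cell type difference at passage 9 was -0.69, no longer 2-fold. Summed markers of leukocytes, which express Nfatc2, were also lower at passage 9, at 118 and 64.7 CPM in low- and high-passage DPCs and 165 and 93.2 CPM in the DSCs. Lyz2, a lysozyme gene of macrophages, alone gave 92.3 and 54.7 CPM of these sums in DPCs and 131 and 78.3 CPM in DSCs. Between 6 and 8 of the 12 leukocyte genes were above 3 counts in a library. Ptprc, the pan-leukocyte gene CD45, had 70, 22, 116 and 18 counts in the order low- and high-passage DPCs, low- and high-passage DSCs. Cd3e and Cd3g, subunits of the T cell receptor complex, had 0 counts in every library. Summed Schwann cell markers moved the same way, from 12.6 to 3.65 CPM in DPCs and from 31.7 to 5.29 CPM in DSCs, with 7 of 7 genes above 3 counts at passage 3 and Sox10 at 0 in both passage 9 libraries. The part of either cell type in the Nfatc2 values was not tested. In bulk libraries, fewer cells that express a gene and less RNA per cell cannot be told apart.

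Nfatc3 and Nfatc4 made up most of the calcium-regulated NFAT message, and neither differed 2-fold in any comparison. Levels of different genes are compared here as deposited FPKM, which is scaled by transcript length. The sum of Nfatc1 to Nfatc4 was 56.9 and 54.0 FPKM in low- and high-passage DPCs and 49.0 and 48.1 in low- and high-passage DSCs. Nfatc4 held between 41.6% and 53.8% of this sum and Nfatc3 between 32.8% and 41.3%. Nfatc1 held between 9.45% and 16.3%, and Nfatc2 was below 1 FPKM in every library, with at most 0.778%. The 7.70-fold difference of Nfatc2 in DPCs thus concerned the smallest member of the family.

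Nfatc3 (ENSMUSG00000031902, chr8:106058840-106130537, plus strand), a widely expressed factor, stood at 136 and 132 CPM in low- and high-passage DPCs and at 134 and 109 CPM in low- and high-passage DSCs. High-passage DSCs were the lowest, and the 2 DPC libraries did not differ beyond counting error, with a log2 fold change of -0.04 (interval -0.10 to 0.01). The change in DSCs was -0.30. A share of 1.87% of its exonic bases overlaps the antisense gene Esrp2, and whether the counting used strand is not known.

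Nfatc4 (ENSMUSG00000023411, chr14:55824795-55833943, plus strand), a factor studied mostly in muscle, blood vessels and neurons, stood at 119 and 105 CPM in low- and high-passage DPCs and at 85.7 and 112 CPM in low- and high-passage DSCs. Low-passage DSCs were the lowest of the 4 libraries. With passage its log2 fold change was -0.18 in DPCs (interval -0.24 to -0.11) and 0.39 in DSCs (0.33 to 0.45). The cell type difference at passage 9, -0.10, changed sign with scaling to total counts and with FPKM, so no order of the 2 passage 9 libraries is given.

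Nfatc1 (ENSMUSG00000033016, chr18:80606205-80713071, minus strand) drives osteoclast formation and holds bulge stem cells quiescent. It stood at 26.7 and 30.3 CPM in low- and high-passage DPCs and at 42.4 and 34.3 CPM in low- and high-passage DSCs. Both DSC libraries were above both DPC libraries. With passage the log2 fold change was 0.18 in DPCs (interval 0.06 to 0.31) and -0.31 in DSCs (-0.41 to -0.21), and the cell type difference was -0.67 at passage 3 and -0.18 at passage 9. Of 5 osteoclast genes, Calcr and Dcstamp had 0 counts in every library and Ctsk, which fibroblasts also express, made up most of a summed level of between 70.0 and 212 CPM.

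**Figure D2:**
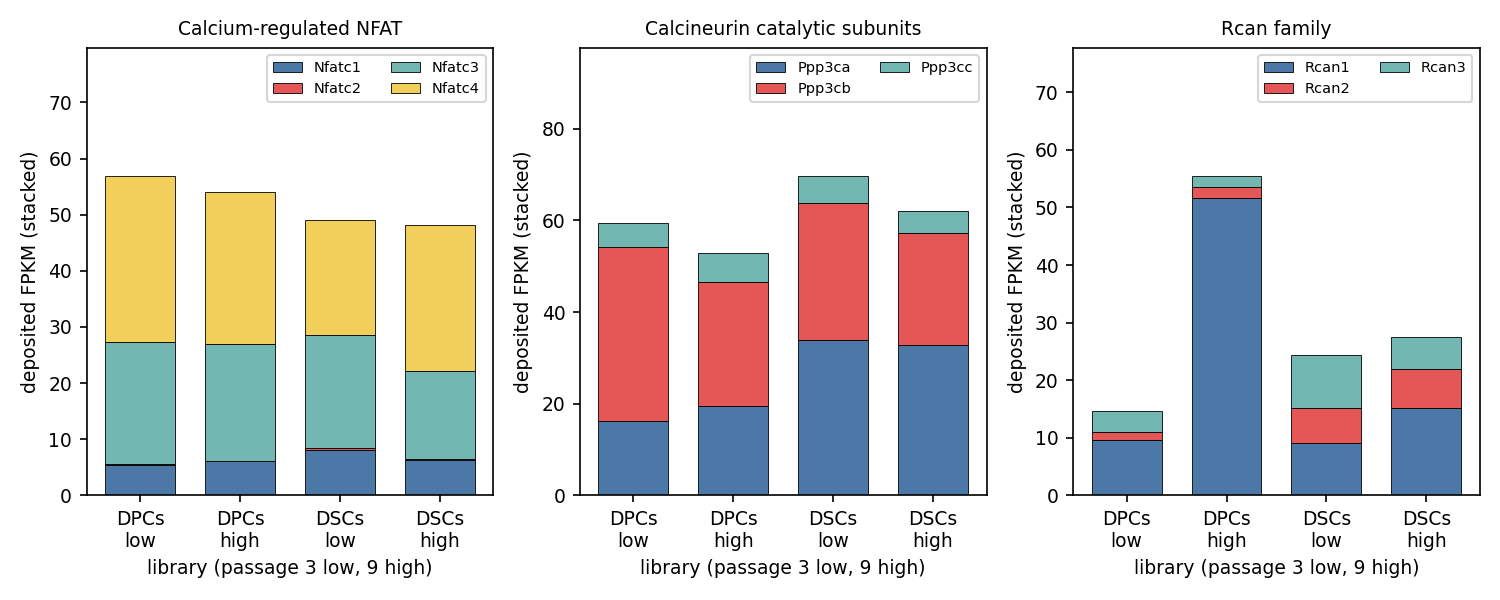
Deposited FPKM of the calcium-regulated NFAT genes (left), the calcineurin catalytic subunits (middle) and the Rcan genes (right), stacked for each of the 4 libraries, with 1 library per bar and no error bar. The NFAT sum lies between 48.1 and 56.9 FPKM, Ppp3ca takes a larger share in DSCs than in DPCs, and the Rcan sum is 55.5 FPKM in high-passage DPCs against 27.4 or less in the other libraries.

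Nfat5 (ENSMUSG00000003847, chr8:107293470-107379517, plus strand) codes for the factor that switches on osmolyte transporters and chaperones under high salt. Its raw count was 6957 and 17232 in low- and high-passage DPCs and 12413 and 15706 in low- and high-passage DSCs, or 189, 480, 327 and 345 CPM. Low-passage DPCs were the lowest and high-passage DPCs the highest, with both DSC libraries between them. The log2 fold change with passage was 1.34 in DPCs (interval 1.30 to 1.39), or 2.54-fold, and 0.07 in DSCs (0.04 to 0.11). The cell type difference accordingly had opposite signs at the 2 passages, -0.79 at passage 3 and 0.48 at passage 9 for DPCs over DSCs. In DPCs, 10.8% of tested genes were at least as much higher.

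The size of the Nfat5 difference depended on the input. On the deposited FPKM scale it was 1.61 in DPCs and 0.16 in DSCs. The transcript length implied by the counts and the FPKM of this gene was 8359 bases in high-passage DPCs and between 9854 and 10705 bases in the other libraries. Relative to the sum of Nfatc1 to Nfatc4 in FPKM, Nfat5 stood at 0.337 and 1.09 in low- and high-passage DPCs and 0.610 and 0.696 in low- and high-passage DSCs. The value of high-passage DPCs rests in part on the shorter length implied there, so no order of Nfat5 and that sum is drawn.

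The question of whether genes that NFAT5 is known to drive moved alongside was addressed with a list of 7 tonicity targets, all tested. In DPCs, 4 were at least 2-fold higher at passage 9 and 1 was lower, where 16.1% of tested genes were higher and 15% lower. Of these, 3 were at least 4-fold higher, against 5.58% of tested genes. In DSCs, 4 of 7 were at least 2-fold higher and 0 lower (8.55% and 6.21% of tested genes), and none was 4-fold higher. The median log2 fold change of the list was 1.87 in DPCs and 1.08 in DSCs, beside 0.03 and 0.00 over all tested genes, and that of DPCs over DSCs was 0.65 at passage 3 and 0.47 at passage 9. The list was chosen with results of these libraries known. Several of its genes also answer to other stresses, and NFAT5 activity was not measured.

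Akr1b3, the aldose reductase that makes the osmolyte sorbitol, had 4286 and 92817 counts in low- and high-passage DPCs and 2625 and 6879 in low- and high-passage DSCs. High-passage DPCs were far above the other libraries, at 2586 CPM against at most 151 CPM. Its log2 fold change with passage was 4.47 in DPCs, or 22.2-fold, and 1.12 in DSCs. Slc6a12, the betaine transporter whose promoter window with the TonE match is shown above, had 138, 2198, 70 and 181 counts in the same order of libraries. It was thus low except in high-passage DPCs, where it reached 61.2 CPM against 3.97 CPM or less elsewhere, and its log2 fold change was 4.01 in DPCs and 1.08 in DSCs.

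Hspa4l, an osmotic stress chaperone, stood at 77.1 and 600.0 CPM in low- and high-passage DPCs and at 49.0 and 146 CPM in low- and high-passage DSCs, with log2 fold changes of 2.96 and 1.57. Hspa1b, an inducible HSP70, stood at 153 and 559 CPM in the DPCs and 171 and 495 CPM in the DSCs, with log2 fold changes of 1.87 and 1.54. Hspa1b has a near-identical copy, Hspa1a, so its counts are uncertain. The other transporters did not follow this pattern. Slc6a6, the taurine transporter, was lower in high-passage DPCs at 1388 CPM than in the other 3 libraries, which lay between 2975 and 3338 CPM, and its log2 fold change was -1.18 in DPCs and -0.17 in DSCs. Slc5a3, the myo-inositol transporter, was named after its values were seen and had log2 fold changes of 0.19 in DPCs and 0.83 in DSCs. Slc38a2, a neutral amino acid transporter, had 0.65 and 0.75, so neither gene passed 2-fold.

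**Figure D3:**
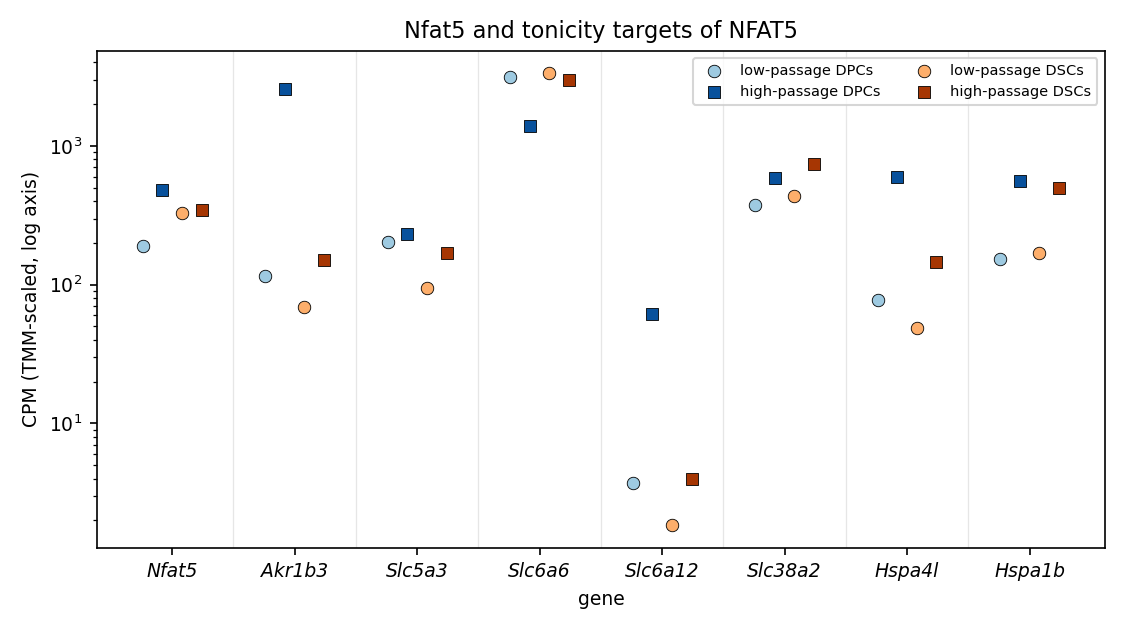
Level of Nfat5 and of the 7 tonicity targets in each library, as TMM-scaled CPM on a log axis, with circles for passage 3, squares for passage 9, blue for DPCs and orange for DSCs. Each symbol is 1 library. High-passage DPCs stand far above the other libraries for Akr1b3, Slc6a12 and Hspa4l and below them for Slc6a6.

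Among the 6 tonicity targets other than Slc6a12, Slc5a3, Slc38a2, Hspa4l and Hspa1b had a RefSeq window each, and none held a TonE match. Among the 7 members with windows, the first Nfatc2 window held 1 TonE match and the others held none. GGAAA was counted 3 times in the first Nfatc2 window and in the Nfatc4 and Ppp3cb windows, as before the internal Rcan1 start, and 2 times in the Nfat5 window and the first Rcan2 window. These counts thus did not set apart the genes that were higher at passage 9. These are statements about 250 bases before a start and say nothing of more distant elements.

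Rcan1 (ENSMUSG00000022951, chr16:92391953-92466146, minus strand) had 893 and 4472 counts in low- and high-passage DPCs and 926 and 1840 in low- and high-passage DSCs. On the CPM scale these were 24.3, 125, 24.4 and 40.4. The 2 passage 3 libraries did not differ beyond counting error (log2 difference -0.01, interval -0.14 to 0.13), and both passage 9 libraries were above them. The log2 fold change with passage was 2.36 in DPCs (interval 2.26 to 2.47), or 5.13-fold, and 0.72 in DSCs (0.61 to 0.84), or 1.65-fold. At passage 9 the level was 3.08-fold higher in DPCs than in DSCs, a difference of 1.62. A value at least as high was found for 4.04% of tested genes with passage in DPCs and for 3.87% between the cell types at passage 9.

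These values count reads over the whole gene. They cannot tell the transcript from the upstream start, whose window held no GGAAA, from the transcript of the internal start, whose window held 3. Which start gave the extra reads in high-passage DPCs was not tested.

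Rcan2 (ENSMUSG00000039601, chr17:43801851-44039516, plus strand), a related calcineurin inhibitor, separated the cell types instead. Its raw count was 176 and 247 in low- and high-passage DPCs and 887 and 1217 in low- and high-passage DSCs, or 4.78, 6.88, 23.4 and 26.7 CPM. Both DPC libraries were below both DSC libraries. The log2 difference of DPCs over DSCs was -2.28 at passage 3 (interval -2.53 to -2.06), or 4.85-fold lower, and -1.95 at passage 9 (-2.16 to -1.76), or 3.86-fold lower. The first lies just inside the 4-fold threshold and the second just outside it. The change with passage was 0.52 in DPCs and 0.19 in DSCs. Between the cell types, 1.98% of tested genes were at least as much lower in DPCs at passage 3 and 4.09% at passage 9.

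Rcan3, the last gene of the family and not one of the 9, also differed between the cell types, at 6.47 and 3.07 CPM in low- and high-passage DPCs against 37.0 and 32.3 CPM in the DSCs. On the FPKM scale the makeup of the family differed between libraries. Rcan1 held 65.5% and 92.9% of the Rcan sum in low- and high-passage DPCs but 37.5% and 55.2% in low- and high-passage DSCs. The share of Rcan2 was 8.89% and 3.37% in the DPCs and 24.9% in each DSC library. The share of Rcan3 was 25.6% and 3.70% in the DPCs and 37.6% and 19.8% in the DSCs. Its FPKM did not follow its counts, which were 1402 and 1472 in low- and high-passage DSCs against 9.15 and 5.45 FPKM. These shares and the Rcan sum thus rest in part on the transcript length implied in each library. The sum itself was 14.7 and 55.5 FPKM in low- and high-passage DPCs and 24.3 and 27.4 in low- and high-passage DSCs.

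Calcineurin is built of a catalytic subunit and a calcium-binding regulatory subunit. Ppp3ca (ENSMUSG00000028161, chr3:136670124-136937727, plus strand), the alpha catalytic subunit, had 3011 and 3589 counts in low- and high-passage DPCs and 6965 and 8322 in low- and high-passage DSCs. The deposited FPKM was 16.2 and 19.6 in the DPCs and 33.9 and 32.8 in the DSCs, so both DSC libraries were above both DPC libraries. The log2 difference of DPCs over DSCs was -1.17 at passage 3 (interval -1.23 to -1.10), or 2.24-fold lower, and -0.87 at passage 9 (-0.93 to -0.81). The change with passage was 0.29 in DPCs and -0.01 in DSCs, and the interval of the latter, -0.05 to 0.04, included 0.

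Ppp3cb (ENSMUSG00000021816, chr14:20499364-20546573, minus strand), the beta catalytic subunit, had 4256 and 2795 counts in low- and high-passage DPCs and 3602 and 3522 counts in the DSCs. Low-passage DPCs were the highest library, at 116 CPM. The 2 passage 9 libraries were the lowest, at 77.9 CPM in DPCs and 77.3 CPM in DSCs, and did not differ beyond counting error (log2 difference 0.01, interval -0.06 to 0.08), though the difference was 0.11 with scaling to total counts and 0.15 with FPKM. The log2 fold change with passage was -0.57 in DPCs (interval -0.64 to -0.50) and -0.30 in DSCs (-0.36 to -0.23). In FPKM, the ratio of Ppp3ca to Ppp3cb was 0.424 and 0.728 in low- and high-passage DPCs and 1.13 and 1.35 in low- and high-passage DSCs. Ppp3cb was thus the more abundant subunit in DPCs and Ppp3ca in DSCs, at either passage.

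The remaining subunits were a list of 3 genes, of which 2 were tested and 0 differed 2-fold in any comparison. Of all tested genes, 31.1% did so with passage in DPCs and 14.8% in DSCs. Between the cell types, 13.3% did so at passage 3 and 20.1% at passage 9. Their median was 0.23 in DPCs and -0.02 in DSCs, and -0.11 and 0.14 for DPCs over DSCs at passages 3 and 9. Ppp3cc, the gamma catalytic subunit, held between 7.98% and 12.2% of the FPKM of the 3 catalytic genes. Ppp3r1, the regulatory B subunit, stood between 43.8 and 53.8 FPKM, with log2 fold changes of 0.13 in DPCs and 0.23 in DSCs. Ppp3r2, known from testis, did not pass the filter on low counts.

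**Figure D4:**
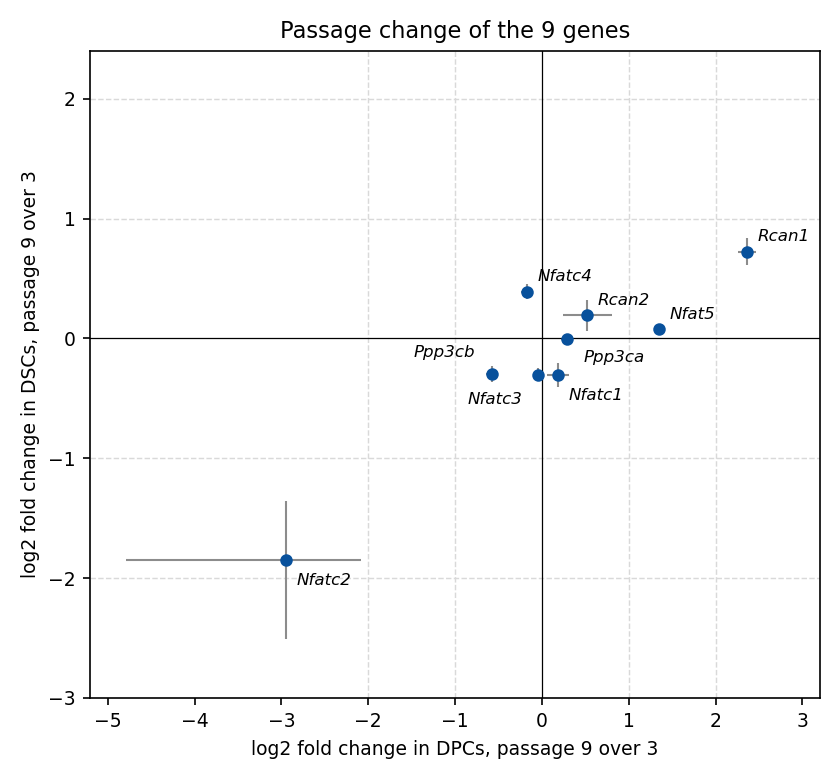
Log2 fold change of passage 9 over passage 3 for each of the 9 genes, in DPCs (horizontal axis) and in DSCs (vertical axis). Bars are 95% exact intervals that cover counting error only, and dashed lines mark 2-fold and 4-fold on each axis. Nfatc2 lies low on both axes, Rcan1 is the farthest to the right at 2.36, and Nfat5 is at 1.34 in DPCs and close to 0 in DSCs.

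Across the 9 genes, 31 of 36 intervals, 4 comparisons for each gene, did not include 0, and the same number did not with counts halved. Intervals of counting error are narrow at these depths and leave out differences between cultures, so they do not show how often a second culture would give the same direction. The median of the 9 log2 fold changes was 0.18 in DPCs and -0.01 in DSCs, and that of DPCs over DSCs was -0.67 at passage 3 and -0.10 at passage 9. Over all tested genes these medians lay between -0.01 and 0.03. The change in DPCs minus that in DSCs was largest for Rcan1 at 1.63 and Nfat5 at 1.27, followed by Nfatc2 at -1.10. All other genes had a difference within 0.57 on the log2 scale, and these differences of changes were not tested.

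The genes around calcineurin and NFAT were followed with 7 lists of 64 genes in all, of which 58 were tested. Over all lists together, 9 genes were at least 2-fold higher and 10 lower at passage 9 in DPCs, against 16.1% and 15% of tested genes, and 9 were higher and 0 lower in DSCs, against 8.55% and 6.21%. At 4-fold these numbers were 4 and 3 in DPCs, against 5.58% and 4.36% of tested genes, and 1 and 0 in DSCs, against 2.67% and 1.16%. Between DPCs and DSCs, 4 genes were at least 2-fold higher and 5 lower in DPCs at passage 3, where 5.43% and 7.86% of tested genes were. At passage 9, 3 were higher and 9 lower, where 9.11% and 11% were. At 4-fold, 0 were higher and 3 lower in DPCs at passage 3, against 1.52% and 2.77% of tested genes. The 4-fold numbers at passage 9 were 3 and 7, against 2.5% and 3.91%. The lists were chosen with earlier results of these data known, so nothing is read from these counts.

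The list of calcineurin inhibitors, anchors and drug-binding proteins held 9 genes, of which 6 were tested, and its median log2 fold change was -0.14 in DPCs and -0.14 in DSCs, with -0.05 and -0.13 for DPCs over DSCs at passages 3 and 9. Rcan3, at -1.06, was the 1 gene 2-fold lower in DPCs, where 15% of tested genes were. Akap5, with at most 23 counts in a library and named after its values were seen, was the 1 gene 2-fold higher in DSCs, where 8.55% were. Cabin1, a calcineurin-binding repressor, had log2 fold changes of 0.16 in DPCs and -0.24 in DSCs. Fkbp1a and Ppia, the proteins through which FK506 and cyclosporin act on calcineurin, had -0.86 and -0.11 in DPCs and -0.49 and -0.10 in DSCs, and Ppia has many processed copies, so its counts are uncertain.

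The list of NFAT kinases and scaffolds held 12 genes, all tested, with a median of -0.14 in DPCs and -0.01 in DSCs, and -0.01 and -0.07 for DPCs over DSCs at passages 3 and 9. In DPCs, 0 were 2-fold higher with passage and 1 was 2-fold lower (16.1% and 15% of tested genes), and in DSCs none was either (8.55% and 6.21%). The gene lower in DPCs was Homer2, a scaffold that competes with calcineurin for NFAT, with 35 and 12 counts in low- and high-passage DPCs and 161 and 134 counts in the DSCs. Its DPC level was 4.29-fold below that of DSCs at passage 3 and 7.76-fold below at passage 9. The abundant kinases stayed within 2-fold: Gsk3a had log2 fold changes of 0.39 in DPCs and -0.19 in DSCs, Gsk3b had -0.92 and -0.30, and Csnk1a1 had -0.31 and 0.03. Mapk14, the p38 alpha kinase, was the 1 gene of the list more than 2-fold higher in DPCs than in DSCs at passage 3. Of tested genes, 5.43% were at least 2-fold higher there. The log2 difference of Mapk14 was 1.36, and it was named after its values were seen.

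The list of calcium entry and calmodulin genes held 16 genes, of which 15 were tested, with a median of -0.03 in DPCs and -0.04 in DSCs, and 0.03 and -0.20 for DPCs over DSCs at passages 3 and 9. In DPCs, 2 were at least 2-fold higher with passage and 3 lower, where 16.1% and 15% of tested genes were, and in DSCs 1 was higher and 0 lower, where 8.55% and 6.21% were. The members of the store-operated channel family differed from each other in DPCs, where Orai3 went from 29.1 CPM to 6.05 CPM (log2 fold change -2.26, interval -2.49 to -2.06). Orai1 was at 7.20 and 20.1 CPM in low- and high-passage DPCs (1.47) and Orai2 at 59.9 and 149 CPM (1.31), and these 2 genes were named after their values were seen. In DSCs the log2 fold changes of Orai1, Orai2 and Orai3 were -0.28, 0.63 and -0.07.

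Trpc6, a calcium-permeable channel that is also counted among the NFAT targets, had 125 and 4 counts in low- and high-passage DPCs and 35 and 145 in low- and high-passage DSCs. Its passage change thus had opposite signs, with a log2 fold change of -4.41 in DPCs (interval -6.83 to -3.54) and 1.73 in DSCs (1.24 to 2.36). Calm2 and Calm3, which code for calmodulin, had log2 fold changes of -0.18 and -0.58 in DPCs and -0.06 and -0.12 in DSCs. Calmodulin genes have processed copies, so these counts are uncertain.

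**Figure D5:**
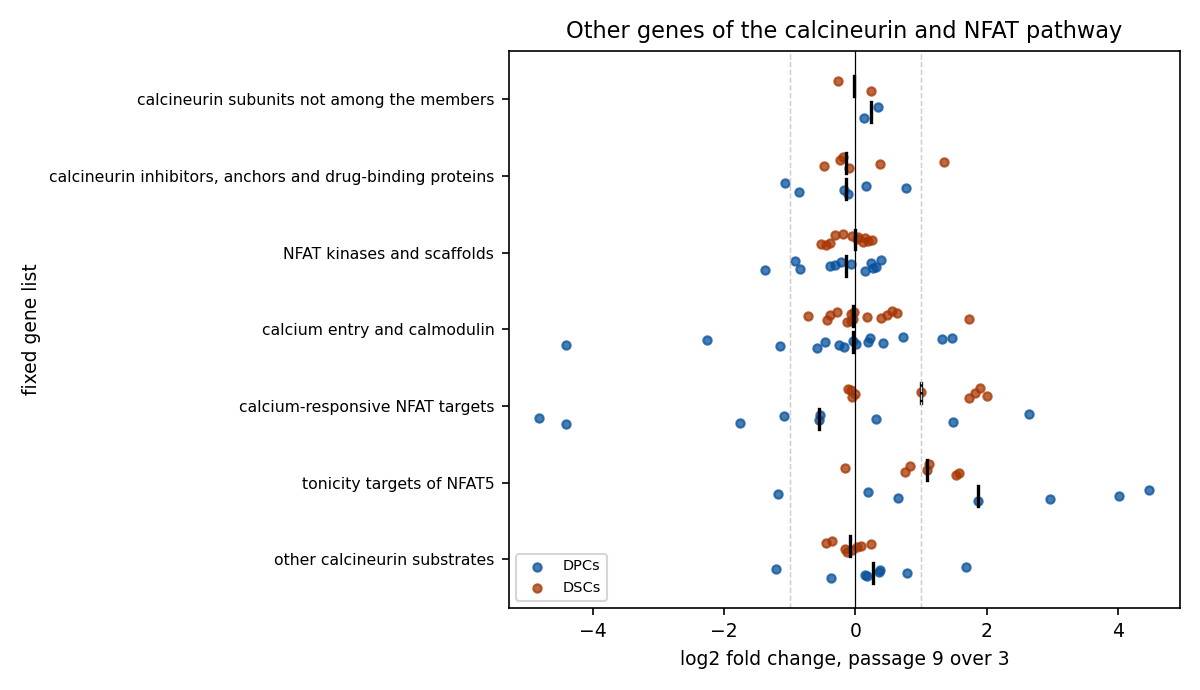
Log2 fold change of passage 9 over passage 3 for the tested genes of the 7 lists, in DPCs (blue) and DSCs (orange), with 1 point per gene and a black bar at the median of each list. Dashed lines mark 2-fold. Trpc6 is in 2 lists, and the lowest point of the calcium-responsive targets is Il6, whose fitted value rests on a library at 0 counts. The tonicity targets have medians of 1.87 and 1.08, and the calcium-responsive targets have -0.55 in DPCs and 0.99 in DSCs.

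The list of calcium-responsive NFAT targets held 10 genes, of which 9 were tested. In DPCs, 2 were at least 2-fold higher with passage and 4 lower, against 16.1% and 15% of tested genes. In DSCs, 4 were higher and 0 lower, against 8.55% and 6.21%. The median was -0.55 in DPCs and 0.99 in DSCs, and that of DPCs over DSCs was -0.01 at passage 3 and -2.40 at passage 9, where 5 genes were at least 4-fold lower in DPCs (3.91% of tested genes). These medians rest on genes of low count such as Il6, Trpc6 and Egr3. With a mean count of at least 100 the median was -0.082 in DPCs with passage and -0.22 for DPCs over DSCs at passage 9. The genes of this list also answer to other signals, and calcineurin activity was not measured.

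Ptgs2, the inducible cyclooxygenase, was higher at passage 9 in both cell types, at 102 and 639 CPM in low- and high-passage DPCs and 129 and 477 CPM in the DSCs, with log2 fold changes of 2.65 and 1.89. Nr4a1, an immediate-early nuclear receptor, stood at 26.8 and 75.3 CPM in the DPCs and 16.7 and 67.3 CPM in the DSCs, with 1.49 and 2.01. Both genes followed Rcan1 in being higher in the 2 passage 9 libraries than in the 2 passage 3 libraries.

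Of the other 7 tested targets, none did. Prlr, which did not pass the filter on low counts, had 0 counts in both passage 3 libraries and 8 and 7 counts in high-passage DPCs and DSCs, and is named after its values were seen. Egr2, an immediate-early factor, was highest in high-passage DSCs, at 37.6 CPM against 10.6 CPM or less elsewhere, with log2 fold changes of 0.32 in DPCs and 1.83 in DSCs. Egr3 had at most 161 counts and was lower in both DPC libraries than in both DSC libraries, with a log2 difference of -2.15 at passage 3 and -2.70 at passage 9. Lmcd1, a LIM-domain cofactor, stood at 48.7 and 14.3 CPM in low- and high-passage DPCs and at 120.1 and 116 CPM in the DSCs, with log2 fold changes of -1.76 and -0.05. Cdk4 and Adamts1 had log2 fold changes of -1.09 and -0.54 in DPCs and -0.07 and -0.11 in DSCs.

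Il6, an inflammatory cytokine, had 51 and 0 counts in low- and high-passage DPCs and 53 and 129 in low- and high-passage DSCs. At a floor of 3 counts for the library at 0, it was at least 16.6-fold lower in high-passage than in low-passage DPCs and at least 33.9-fold lower than in high-passage DSCs. If both mates were counted, the floor is 6 counts and both bounds are smaller. With Il6 at its bound it is still among the lowest genes of its list, so the medians above stay as they are.

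The list of other calcineurin substrates held 8 genes, all tested, with a median of 0.27 in DPCs and -0.09 in DSCs, and -0.25 and -0.09 for DPCs over DSCs at passages 3 and 9. Mef2a, a transcription factor that calcineurin activates in muscle, stood at 30.7 and 98.9 CPM in low- and high-passage DPCs and 75.5 and 58.9 CPM in the DSCs, with log2 fold changes of 1.69 and -0.36. Low-passage DPCs were its lowest library and high-passage DPCs its highest, the same order of extremes as for Nfat5. Mef2c, named after its values were seen, had log2 fold changes of -1.21 in DPCs and -0.45 in DSCs, and Mef2d had 0.37 and 0.24. Dnm1l, the mitochondrial fission enzyme, had -0.37 and -0.12.

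Finally, the genes whose pattern over the 4 libraries was most like that of 2 members were sought among 12192 genes with a mean count of at least 100. Likeness was the Euclidean distance between log2 CPM values centred on their mean, and with 4 values per gene it is a description only. The nearest to Nfatc2, the gene with the widest range at 3.76, were Mt2, a metallothionein (distance 0.364), Ptger3, a prostaglandin E2 receptor (0.412), and Zfpm2, a GATA cofactor (0.501). Mt2 had 1279, 149, 1942 and 914 counts in low- and high-passage DPCs and low- and high-passage DSCs, so that high-passage DPCs were lowest there too. The nearest to Rcan2, whose range was 2.47, were Bdh2 (0.119), Nipal1 (0.191) and Lgals9 (0.275). Lgals9, which codes for galectin-9, had 615, 679, 2747 and 3384 counts in the same order.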

How the data were processed

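The 4 libraries, 1 per group, were grouped by the cell type and passage in their labels. The authors deposited raw counts per gene, which were not normalized, and FPKM per gene, which they scaled by transcript length and mapped fragments. The submitters' processing notes name Bowtie 0.12.2 and builds mm8 and mm9, while the positions in the tables are those of GRCm38. The counting program and the use of strand are not given in the sources used here. The labels name a TruSeq kit, and the study's methods name NEBNext, poly-T selection and paired-end reads. Even counts were in excess in every library (1339 genes at 2 counts against 583 at 3 in the low-passage DPC library), as counting of both mates would give, so intervals were also computed with halved counts.

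Counts were scaled by TMM (edgeR 4.0.16, R 4.3.3), and log2 fold changes were taken from log2 CPM with a prior count of 2. Genes with a mean count of at least 10 were compared. Calls were made at 4-fold and 2-fold, since 1 library per group allows no test of a single comparison, and no model over both cell types was fitted. Alternatives were DESeq2 1.42.0 size factors, total counts, upper-quartile scaling, prior counts of 0.5 and 10, no filter, a mean count of at least 100, and FPKM. The computation was tested on simulated data. Of 51826 IDs, 51633 were in GENCODE M21.

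The 9 members and the 7 lists were chosen with earlier results of these data known. All members were named, and from each list every gene past 4-fold in any comparison with up to 3 others of highest mean count, except 1 list gene whose values are not reported here. Of the members, Nfatc1 and Ppp3ca had no promoter window, and of the tonicity targets Akr1b3 and Slc6a6.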

Additional observations from a re-analysis of the deposited data

Results flagged for a closer look

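Nfatc1 and Nfatc4 had passage changes of opposite sign in DPCs and DSCs, with both intervals of counting error away from 0. For Nfatc1 the log2 fold change was 0.18 in DPCs and -0.31 in DSCs, a difference of 0.49. For Nfatc4 it was -0.18 in DPCs and 0.39 in DSCs, a difference of -0.57. With 1 library per group the difference was not tested.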

How the results depend on the processing

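No paired analysis was possible within a comparison, because each group had 1 library and the labels give no replicate numbers. For the same reason no library could be left out of a group. Of 284 values of the members under other settings, 256 stayed within the main interval and 0 of the called values changed sign. The number of members past 4-fold in DPCs went from 2 to 1 with a mean count of at least 100, which drops Nfatc2, and with FPKM. The number past 4-fold at passage 9 between cell types went from 0 to 1 with a prior count of 0.5 (Nfatc2), and the number past 2-fold in DSCs from 1 to 0 with a mean count of at least 100. With FPKM without a pseudocount, chosen after seeing the data, the Nfatc2 change was -3.48 in DPCs and -2.01 in DSCs. Medians of lists moved as follows, in the order DPCs with passage, DSCs with passage, DPCs over DSCs at passage 3 and at passage 9 where 4 are given. With no filter, the calcineurin subunits had 0.095, -0.27, -0.31 and 0.00, the inhibitors 0.00 in DSCs and 0.16 at passage 9, calcium entry -0.14 in DPCs, and the calcium-responsive targets -1.55 at passage 9. With a mean count of at least 100, the kinases had -0.032 and the calcium-responsive targets -0.082 in DPCs, and the latter -0.22 at passage 9. With total counts, at passage 3 and passage 9, the inhibitors had 0.046 and -0.026, the kinases 0.078 and 0.028, the tonicity targets 0.74 and 0.57, and the substrates -0.15 and 0.010. With FPKM, the inhibitors had 0.047 in DPCs and 0.073 at passage 9, the kinases -0.19 in DSCs and 0.059 and 0.039 at passages 3 and 9, calcium entry -0.043 at passage 9, the tonicity targets 0.83 and 0.57 at passages 3 and 9, and the substrates 0.035 at passage 9. FPKM moved the median of all genes by at most 0.105. The cause of these shifts was not tested. Depth limits Nfatc2, with 6 counts in high-passage DPCs.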
